A study of Mus musculus with 8 samples.

Results

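The AP-1 and EGR immediate early factors are 10 genes given by name: Fos, Fosb, Jun, Junb, Jund, Egr1, Egr2, Egr3, Atf3 and Ier2. All 10 were found by symbol among the 32499 genes of the count table. A filter on low counts left 12970 genes for testing, 9 of the 10 factors among them. The exception was Egr3, which had between 0 and 9 counts per library.

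RNA was sequenced from cultured pre-B cells, the stage of B cell development that follows rearrangement of the immunoglobulin heavy chain gene. The cells came from bone marrow of C57BL/6 mice and carried the genotype Arf-/- in all 4 groups, so the controls also lacked this tumour suppressor. They were transduced with lentivirus and sorted for GFP. ZNF384 is a zinc finger transcription factor. Each of the 4 groups had 2 libraries: empty vector, wild-type ZNF384 with an HA tag, called full-length ZNF384 here, TAF15-ZNF384-HA and TCF3-ZNF384-HA. Both fusions occur in acute leukaemia, and forced expression in mouse cells models only the presence of the protein. The replicates are described as biological, but no label tells whether they were separate animals or separate transductions, so p-values measure the spread between these cultures.

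Immediate early genes are transcribed within minutes of a stimulus from factors that are already present in the cell, with no need for new protein. AP-1 is a dimer of leucine zipper proteins: FOS proteins pair with JUN proteins, JUN proteins can also pair among themselves, and ATF3 is a stress-induced partner. EGR proteins are zinc finger factors that bind GC-rich sites. In B cell precursors both families lie downstream of the pre-B cell receptor, cytokine and MAP kinase signals, and EGR1 is known to promote the passage through the pre-B stage.

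Promoter stretches are shown for 4 of the factors because they hold known control elements of immediate early genes. The stretches were read from the mm9 genome in the 500 bases before each gene's annotated start in GENCODE vM1. The CArG box is the site of serum response factor (SRF), which together with ternary complex factors carries MAP kinase signals to immediate early genes. Its letters are CC, then 6 letters A or T, then GG. The 300 bases on the plus strand at chr12:86814516-86814815, which end 25 bases before the start of Fos, hold a CArG box and a TATA element, in capitals.
Fos: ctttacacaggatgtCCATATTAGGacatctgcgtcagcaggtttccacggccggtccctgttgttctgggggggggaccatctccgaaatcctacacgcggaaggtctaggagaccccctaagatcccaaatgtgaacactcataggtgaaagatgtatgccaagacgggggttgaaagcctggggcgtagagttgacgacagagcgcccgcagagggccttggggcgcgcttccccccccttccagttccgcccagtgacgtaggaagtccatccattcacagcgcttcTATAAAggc
The CArG box of Fos begins 309 bases before the annotated start and that of Fosb 272 bases before it. The stretch of Fosb is from the minus strand at chr7:19895642-19895681, with the CArG box in capitals.
Fosb: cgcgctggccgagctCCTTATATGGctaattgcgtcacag
Jun carries TGACATCA, known as a site through which AP-1 proteins act on this gene, at chr4:94718936-94718973 on the minus strand, in capitals. This motif was added after the promoters had been read.
Jun: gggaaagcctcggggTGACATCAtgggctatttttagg
Ier2 carries a cyclic AMP response element, TGACGTCA, at chr8:87186774-87186811 on the minus strand, in capitals.
Ier2: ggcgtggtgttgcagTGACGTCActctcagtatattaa

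Both strands were searched in the promoters of the 10 factors and of 22367 protein coding genes over the same 500 bases. A CArG box was present in Fos, Fosb and Egr1, where there were 5 matches, and in 2.70% of all promoters. TGACGTCA was found in Ier2 alone of the 10 and in 2.21% of all promoters, and TGACATCA in Jun alone and in 3.88%. The EGR motif GCGNGGGCG was present in Fosb and Jun and in 7.22% of all promoters. TGANTCA, the AP-1 motif, was present in Fos and in 12.1%. TATAAA was present in Fos and Junb and in 24.6%. Junb, Jund, Egr2, Egr3 and Atf3 held none of the 4 motifs CArG, TGACGTCA, GCGNGGGCG and TGANTCA in this window. The window lies before the outermost annotated start of each gene. Egr2 has 8 annotated transcripts and Jund, Egr3 and Atf3 have 2 each, and any start further inside a gene was not searched. A match is a string of letters and not a measured site.

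Totals ran from 9381954 to 41483660 counts per library. Levels are normalised counts, CPM, on library sizes scaled by TMM, a method that sets the libraries to a common level across most genes. A group of 5 abundant non-coding genes took 27.2 and 33.2% of the empty vector counts. Its share was 10.9 and 12.5% for full-length ZNF384, 28.1 and 29.6% for TAF15-ZNF384, and 18.5 and 24.5% for TCF3-ZNF384. The 10 B lineage markers had counts in every library and summed to 4940 to 6330 CPM. The sum hides single changes over the empty vector, by the edgeR test given below (adjusted p under 0.05). With full-length ZNF384 2 of the 10 rose, and with TAF15-ZNF384 1 rose and 1 fell. With TCF3-ZNF384 4 rose and 3 fell. Of all tested genes, 10.8, 5.01 and 16.2% rose and 9.87, 6.01 and 17.0% fell, in this order. Between 1 and 5 of 9 myeloid markers had a count in a library, with sums of 0.0437 to 0.115 CPM with full-length ZNF384, 0.363 to 0.544 with the empty vector or TAF15-ZNF384 and 1.29 to 1.62 with TCF3-ZNF384, and S100a8 and S100a9 were at 0 in all 8 libraries. Stromal markers summed to 0.504 to 2.21, erythroid and megakaryocyte markers to 3.54 to 6.85 and T and NK cell markers to 19.6 to 27.4 CPM over all libraries. Per library, 4 to 6 of 8 stromal, 3 to 5 of 7 erythroid and megakaryocyte and 3 to 5 of 8 T and NK cell markers had a count. Cd8a had none in any library. Reads on Zfp384, the mouse counterpart of ZNF384, were at 24 and 21.6 CPM in the controls. They reached 51.1 and 90.2 for full-length ZNF384, 185 and 162 for TAF15-ZNF384, and 511 and 450 for TCF3-ZNF384. The constructs carry human sequence, which aligns to the mouse gene only in part.

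The 10 factors differed in level within the cells of the empty vector. Per kilobase of exon, the mean was highest for Junb, at 202 ± 48.5 CPM (SD, n = 2), and Jun, at 168 ± 70.1, whose libraries overlapped. Ier2 (68.3 ± 13.0) and Atf3 (38.1 ± 9.34) followed. Fos (19.2 ± 9.29), Egr1 (13.7 ± 7.37), Jund (11.7 ± 2.95) and Fosb (6.73 ± 2.47) came next. Neighbours among these 4 overlapped in their libraries except Jund and Fosb, at 9.59 and 13.8 against 4.99 and 8.48. Egr2 (0.317 ± 0.106) and Egr3 (0.189 ± 0.0722) were the lowest, and their libraries nearly met, at 0.242 and 0.391 against 0.240 and 0.138. The order was the same with TAF15-ZNF384. With TCF3-ZNF384, Jun (133 ± 47.7) stood above Junb (126 ± 36.0) and Jund (11.5 ± 2.80) above Egr1 (9.53 ± 4.58), and each of these pairs overlapped in its libraries. With full-length ZNF384, Junb (55.0 ± 4.46) stayed first, followed by Ier2 (36.9 ± 1.90) and Jun (13.1 ± 5.12), none of which overlapped. Then came Atf3 (5.57 ± 2.04), Jund (2.80 ± 0.614) and Fosb (2.07 ± 0.173), while Egr1 (0.663 ± 0.121) and Fos (0.582 ± 0.230) had overlapping libraries below them.

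**Figure D1:**
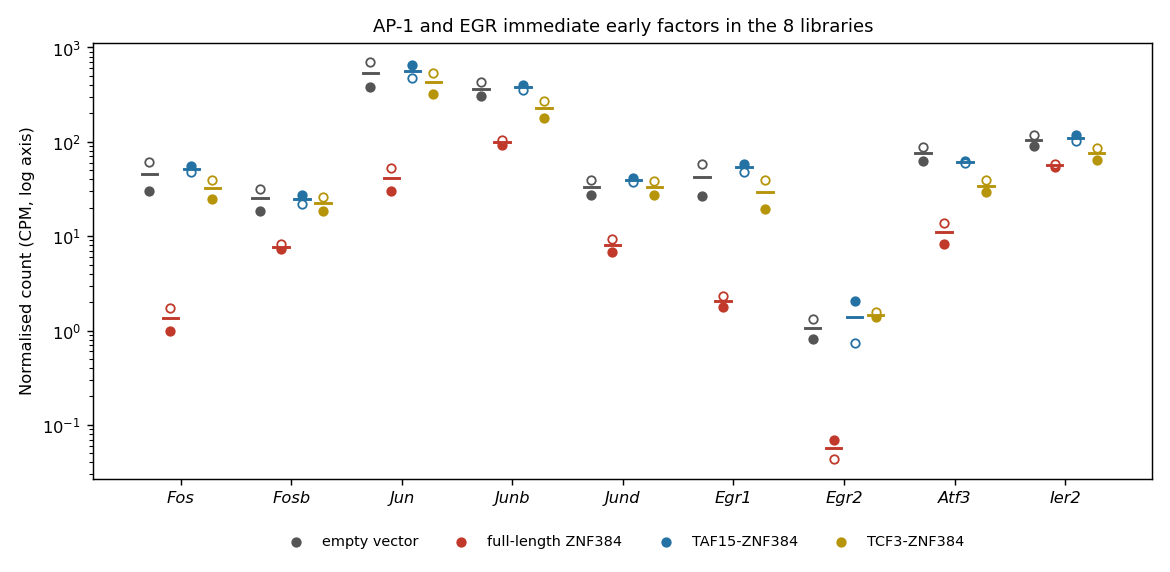
Normalised counts (CPM, log axis) of the 9 tested factors in each library. Filled circles are replicate 1, open circles replicate 2 and short bars group means. For each gene the full-length ZNF384 libraries lie below the other 6.

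With full-length ZNF384, all 9 tested factors fell relative to the empty vector, against 9.87% of all tested genes that fell (edgeR's quasi-likelihood test, p adjusted by Benjamini-Hochberg over all 12970 genes, threshold 0.05). In each of the 9 the 2 full-length ZNF384 libraries lay below both controls, which held for 26.2% of all tested genes. Their median log2 fold change was −2.81, beside 0.03 over all tested genes. Fos and Egr1 moved furthest and Ier2 least. Without full-length ZNF384 replicate 1, 3 of the 9 calls held, for Jund, Egr2 and Atf3, and the log2 fold changes of the other 6 were between −4.70 and −0.85. Without replicate 2 of that group, Fosb (−1.81), Egr1 (−4.58) and Ier2 (−0.96) were no longer called. In bulk RNA, fewer cells with a transcript and less of it per cell cannot be told apart.

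Fos (chromosome 12, from 86814840 to 86818223 in mm9, plus strand, protein coding) encodes the founding FOS protein, which binds DNA only with a partner. The control libraries had 29.8 and 60.7 CPM of it, and those of full-length ZNF384 0.986 and 1.75. The highest full-length ZNF384 library was thus far below the lowest control. The log2 fold change was −5.14 ± 0.54 (SE, adjusted p = 0.00235), a 35.3-fold fall. Fosb (chromosome 7, from 19888070 to 19895394, minus strand), a close relative, had a smaller fold change. Its levels were 18.7 and 31.8 CPM in the controls and 7.29 and 8.21 in full-length ZNF384 cells, a log2 fold change of −1.71 ± 0.27 (adjusted p = 0.00304).

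Among the JUN genes the fall was steepest for Jun itself (chromosome 4, from 94715725 to 94718913, minus strand). Its transcripts went from 377 and 693 CPM with the empty vector to 30.1 and 53.2. Those libraries did not overlap, and the log2 fold change was −3.70 ± 0.52 (adjusted p = 0.0095). Junb (chromosome 8, from 87500811 to 87502617, minus strand, 1 exon) encodes a JUN protein that is a weaker activator than JUN in many settings. Control levels of 303 and 427 CPM compared with 93.6 and 105, a log2 fold change of −1.88 ± 0.22 (adjusted p = 0.00072). Jund (chromosome 8, from 73221638 to 73224515, plus strand) is the JUN gene usually transcribed without a stimulus. It fell too, from 27.6 and 39.6 to 6.81 and 9.31 CPM. That is a log2 fold change of −2.08 ± 0.23 (adjusted p = 0.000259).

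The makeup of both families is given as shares, without a test. Of the counts per exonic length on the 3 JUN genes, Jun held 40.0 and 46.5% in the controls but 14.8 and 21.3% in full-length ZNF384 cells. Junb held 56.7 and 50.6% against 81.4 and 74.5%. Between Fos and Fosb, the share of Fos was 71.7 and 75.3% in controls, against 17.7 and 25.3% in full-length ZNF384 cells. TAF15-ZNF384 cells had a Fos share of 76.6 and 77.5%, TCF3-ZNF384 cells one of 68.4 and 70.6%. Fosb was the more abundant of the pair only in the full-length ZNF384 libraries among the 8.

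**Figure D2:**
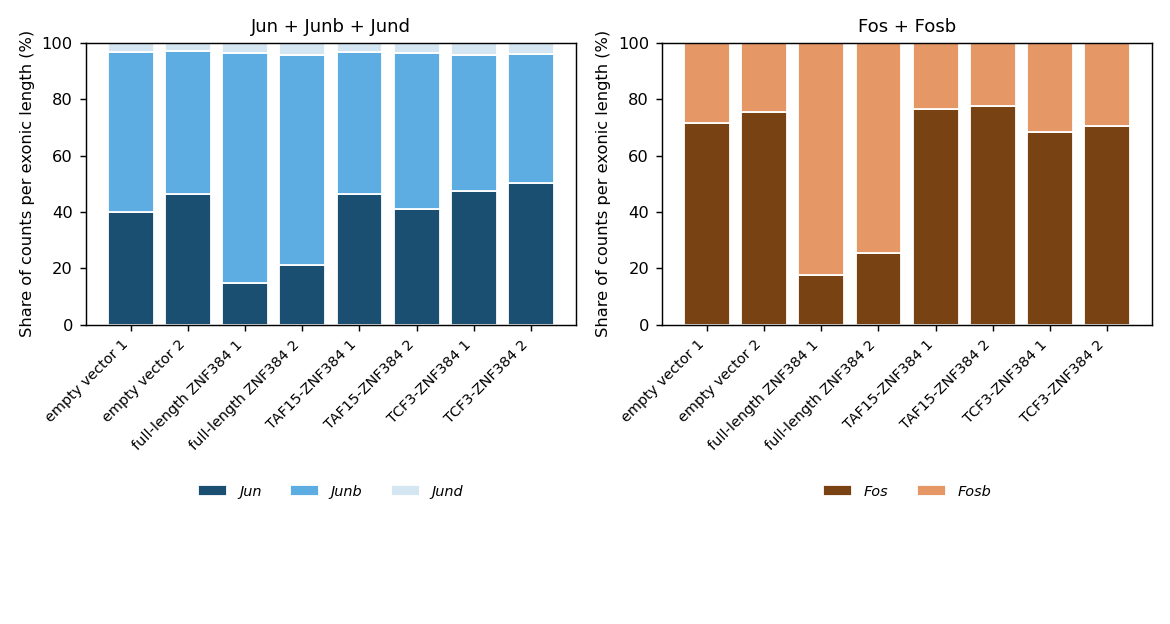
Share (%) of the counts per exonic length that each gene held within Jun, Junb and Jund (left) and within Fos and Fosb (right), with 1 bar per library and the replicate number in its label. The Jun share is 14.8 and 21.3% in the full-length ZNF384 libraries and 40.0% or more in the other 6.

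Egr1 (chromosome 18, from 35020861 to 35024638, plus strand), the most abundant EGR gene here, encodes a zinc finger factor that is induced by growth factors and antigen receptors. Controls had 26.4 and 58.7 CPM, full-length ZNF384 cells 1.79 and 2.32, and the groups were well apart. The log2 fold change was −4.41 ± 0.62 (adjusted p = 0.00867), a 21.3-fold fall. Egr2 (chromosome 10, from 66998223 to 67004936, plus strand) encodes a relative known for its part in lymphocyte anergy and in nerve myelination. It was scarce, with 21 and 33 counts in controls but 3 and 1 in full-length ZNF384 cells. The log2 fold change was −4.04 ± 0.72 (adjusted p = 0.00151). Egr3 (chromosome 14, from 70477252 to 70479964, plus strand) had 9 and 5 counts with the empty vector and 0 in both full-length ZNF384 libraries. With a floor of 3 counts over a group at 0, which here is 0.0451 CPM, it was at least 6.16-fold higher with the empty vector. That bound was 2.12-fold without full-length ZNF384 replicate 1 and 4.04-fold without its replicate 2. The main fit did not test it. With no filter on low counts it was tested and was called lower with full-length ZNF384.

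Atf3 (chromosome 1, from 192994175 to 193007219, minus strand) is induced both by growth signals and by the integrated stress response. Levels of 62.4 and 88.6 CPM in controls stood against 8.19 and 13.9 in full-length ZNF384 cells, with no overlap. The log2 fold change was −2.81 ± 0.28 (adjusted p = 0.000711). Ier2 (chromosome 8, from 87185230 to 87186751, minus strand, 1 exon), which encodes a small nuclear protein, had the smallest fold change of the tested factors. Its 90.0 and 118 CPM in controls compared with 54.1 and 58.2, a log2 fold change of −0.89 ± 0.15 (adjusted p = 0.0019).

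**Figure D3:**
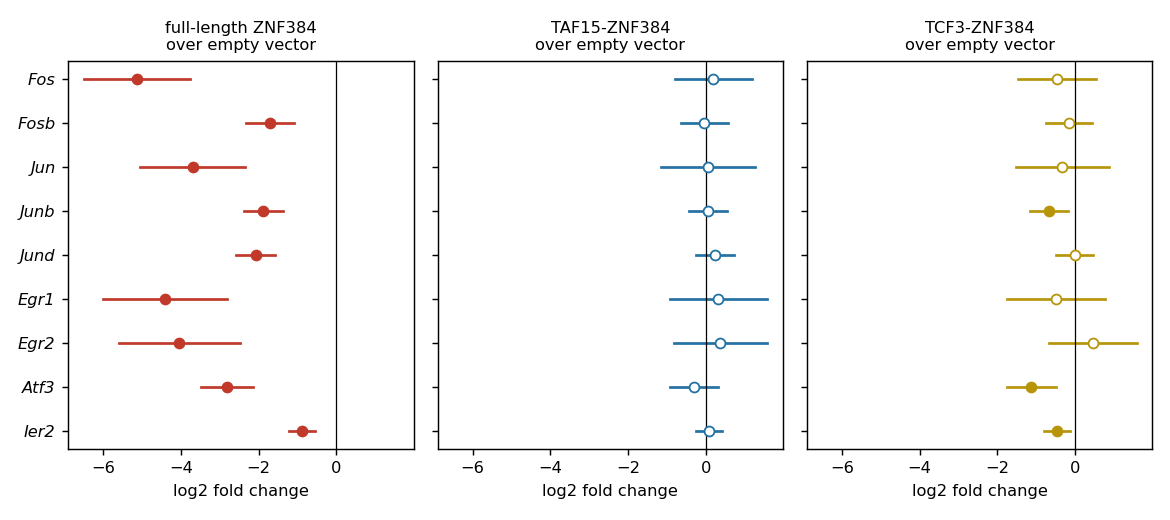
Log2 fold change over the empty vector for each tested factor, with its 95% interval from the fit. Filled points passed an adjusted p of 0.05. The 9 points for full-length ZNF384 are filled, and so are Junb, Atf3 and Ier2 for TCF3-ZNF384.

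With TAF15-ZNF384 against the empty vector, none of the 9 tested factors passed the test by edgeR, against 11.0% of all tested genes. None had an unadjusted p under 0.05, and DESeq2 and limma-voom called none either. Fos was at 56.1 and 47.8 CPM, inside the range of the empty vector libraries. Jun was at 649 and 473, Junb at 400 and 358 and Egr1 at 58.6 and 48.4. These values lay within the range of the empty vector libraries as well. The 95% intervals of the log2 fold change were −0.80 to 1.20 for Fos, −1.14 to 1.27 for Jun and −0.92 to 1.58 for Egr1. They were narrower for Junb, at −0.43 to 0.54, and Ier2, at −0.26 to 0.42. Fosb was at 27.4 and 22.1 CPM and Jund at 41.2 and 37.8, with intervals of −0.64 to 0.58 and −0.25 to 0.72. Ier2 was at 119 and 101 CPM, near the 90.0 and 118 of the controls. Egr2 had 19 and 7 counts, or 2.07 and 0.740 CPM, and an interval of −0.82 to 1.57. Egr3 had 7 and 2 counts, a ratio to the empty vector of 1.74 with a 95% counting interval of 0.663 to 4.31. Atf3 was at 62.0 and 59.7 CPM, just below the lowest control, and its log2 fold change was −0.31 ± 0.26 (adjusted p = 0.506).

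With TCF3-ZNF384, the comparison with the empty vector gave 3 factors that fell, Atf3, Junb and Ier2, against 17.0% of all tested genes that fell. The share of factors was not tested against this background. Atf3 was at 29.3 and 39.1 CPM against 62.4 and 88.6, and the libraries did not overlap. Its log2 fold change was −1.13 ± 0.27 (adjusted p = 0.0162), and without TCF3-ZNF384 replicate 1 it was −0.94 and no longer called (adjusted p = 0.0999). Junb was at 181 and 273 CPM against 303 and 427, a log2 fold change of −0.68 ± 0.21 (adjusted p = 0.0387). Ier2 was at 64.3 and 86.6 CPM against 90.0 and 118, a log2 fold change of −0.46 ± 0.16 (adjusted p = 0.0407). The Junb and Ier2 calls ended without empty vector replicate 2, at −0.42 and −0.25, and without TCF3-ZNF384 replicate 1, at −0.41 and −0.26. They also ended without full-length ZNF384 replicate 1, without its replicate 2 and in a fit of only these 2 groups. The Junb call ended as well by edgeR after random thinning of the libraries to equal counts, at −0.67 (adjusted p = 0.0606). Fos, at 25 and 39.4 CPM, and Egr1, at 19.5 and 39.6, overlapped the empty vector libraries, with log2 fold changes of −0.47 ± 0.40 and −0.49 ± 0.49. Without empty vector replicate 1, Fos was called at −0.90 (adjusted p = 0.0298). Jund, at 27.5 and 38.9 CPM, had a log2 fold change of 0.00 with an interval of −0.48 to 0.47. Jun, at 318 and 533 CPM, had one of −0.33 ± 0.47, and Fosb, at 18.4 and 26.2 CPM, one of −0.16 ± 0.26. The lower Jun and Fosb libraries lay just below the lowest control and the higher ones inside its range. Egr2 was at 1.38 and 1.56 CPM, just above the controls at 0.821 and 1.33, and its log2 fold change was 0.46 ± 0.53 (adjusted p = 0.541). Egr3 had 1 and 5 counts, a ratio to the empty vector of 0.733 with a counting interval of 0.231 to 2.03.

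Set against full-length ZNF384, the fusions had higher levels of all 9 tested factors. The share of all tested genes that were higher was 15.4% with TAF15-ZNF384 and 22.2% with TCF3-ZNF384. For TAF15-ZNF384 the log2 fold changes ran from 0.97 ± 0.16 for Ier2 to 5.34 ± 0.55 for Fos (adjusted p = 0.000745 and 0.00132). For TCF3-ZNF384 they ran from 0.43 ± 0.16 for Ier2 to 4.67 ± 0.55 for Fos (adjusted p = 0.0391 and 0.00128). Egr3, untested in the main fit, was at least 10.7-fold higher with TAF15-ZNF384, on 9 counts, and at least 4.52-fold higher with TCF3-ZNF384, on 6. Most of these counts came from TAF15-ZNF384 replicate 1 (7 counts) and TCF3-ZNF384 replicate 2 (5 counts). Without those libraries 2 and 1 counts were left, under the floor, and no bound could be given. Without full-length ZNF384 replicate 1 the bounds were 3.68- and 1.56-fold, without its replicate 2 they were 7.02- and 2.96-fold, and without TAF15-ZNF384 replicate 2 the first was 16.9-fold. Without full-length ZNF384 replicate 1, 4 of the 9 calls held for TAF15-ZNF384 (Fos, Jund, Egr2 and Atf3) and 3 for TCF3-ZNF384 (Jund, Egr2 and Atf3). Without replicate 2 of that group, Fosb lost its call for TAF15-ZNF384, and 5 calls held for TCF3-ZNF384, those of Fos, Jun, Jund, Egr2 and Atf3. Ier2 over full-length ZNF384 also lost its call without TCF3-ZNF384 replicate 2, at 0.21. Of the deposited columns, 6 are named with a suffix and the 2 of the controls without it, so any separate handling cannot be told apart from that group. Full-length ZNF384 and fusion libraries all carry the suffix. These comparisons share the full-length ZNF384 libraries, as the comparisons above share those of the empty vector.

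Between the fusions, TCF3-ZNF384 over TAF15-ZNF384, none of the 9 factors passed edgeR's test, against 10.1% of all tested genes. Unadjusted p was under 0.05 for 3 of them, and DESeq2 called 1 and limma-voom 2. Ier2 was at 64.3 and 86.6 CPM with TCF3-ZNF384 and 119 and 101 with TAF15-ZNF384, and Junb was at 181 and 273 against 400 and 358. Neither pair of groups overlapped, and the TCF3-ZNF384 libraries were also the lower ones without overlap for Atf3, Fos and Egr1. The share of all tested genes without such overlap is not given here. Over the 9 factors the median log2 fold change was −0.53, beside 0 over all tested genes. The log2 fold changes were −0.53 ± 0.16 for Ier2 (adjusted p = 0.0546), −0.74 ± 0.21 for Junb (adjusted p = 0.0692) and −0.82 ± 0.28 for Atf3 (adjusted p = 0.121). When replicate 1 or replicate 2 of the empty vector was left out, Ier2 and Junb passed at −0.53 and −0.74, and without TCF3-ZNF384 replicate 2 they passed at −0.78 and −1.07.

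The factors also varied together between replicates of 1 group. In the empty vector group all 9 tested factors were higher in replicate 2 than in replicate 1, by 1.31-fold for Ier2 to 2.22-fold for Egr1, while the median ratio over all tested genes was 0.988. With TCF3-ZNF384 all 9 were higher in replicate 2, by 1.13- to 2.03-fold. With full-length ZNF384, 8 of 9 were higher in replicate 2, Egr2 being the exception on 1 count. With TAF15-ZNF384 all 9 were higher in replicate 1. The share of the 5 abundant non-coding genes was also higher in replicate 2 with the empty vector, full-length ZNF384 and TCF3-ZNF384, but with TAF15-ZNF384 it was higher in replicate 2 and the factors in replicate 1. Its part in these values was not tested. When the 5 genes were left out before scaling, the number of factors called was unchanged in each of the 6 comparisons. Leaving them out changes only the scaling and the filter, so it does not test the part of that share.

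**Figure D4:**
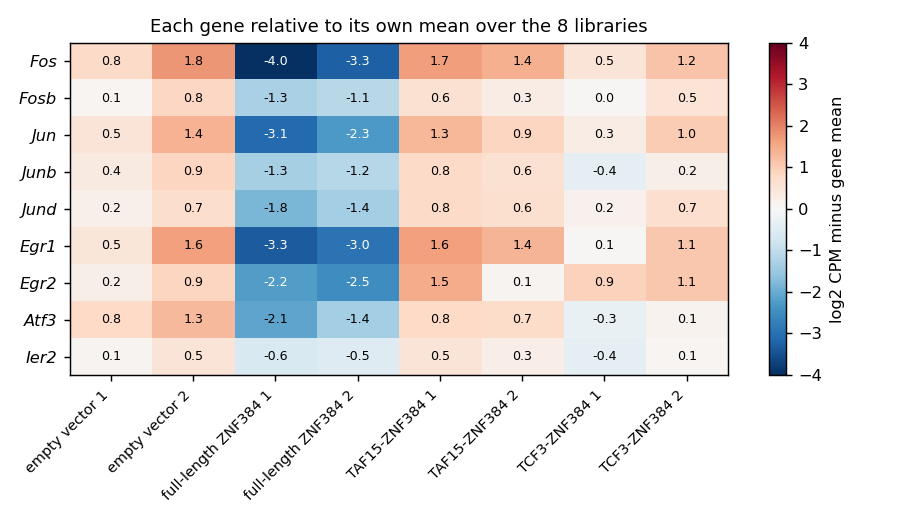
Log2 CPM of each tested factor in each library (columns, with the replicate number) minus the gene's own mean over the 8 libraries. Red is above and blue below the mean. In the full-length ZNF384 columns each gene is below its mean, and the empty vector replicate 2 column is above replicate 1 for each gene.

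Likeness of pattern was measured as the root mean square difference, over the 8 libraries, of log2 CPM centred on each gene's mean. Among the factors, Fosb and Junb were nearest, at 0.25, then Fosb and Jund (0.26), and Fos and Egr1 and also Junb and Jund (0.33). Fos and Ier2 were farthest apart, at 1.80, and Fos was 1.44 from its relative Fosb. The range over the 8 libraries was 5.81 log2 units for Fos, 4.96 for Egr1, 4.52 for Jun and 1.13 for Ier2. Outside the set, 9259 genes with a mean of at least 5 CPM were compared with the mean profile of the 9 factors. The named genes closest to it were Mettl4-ps1 (0.18), Gadd45b (0.21), Gadd45a (0.23), Ier5 (0.23) and Pdlim7 (0.23), and 1 gene model without a proper name lay among them. The 9 factors themselves lay from 0.29 (Jund) to 0.95 (Fos) from this mean profile, farther than these named genes. Gadd45a and Gadd45b encode stress-induced proteins that act on MAP kinase pathways, Ier5 is another immediate early gene and Pdlim7 encodes a cytoskeletal adaptor.

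The gene lists that follow are read against all tested genes. Over the empty vector, 10.8% of these rose and 9.87% fell with full-length ZNF384, 5.01% rose and 6.01% fell with TAF15-ZNF384, and 16.2% rose and 17.0% fell with TCF3-ZNF384. Of 11 tested AP-1, ATF and Maf genes outside the set, 4 fell with full-length ZNF384, with a list median of −0.28. With TAF15-ZNF384 1 fell (median 0.01), and with TCF3-ZNF384 2 rose and 3 fell (median −0.30). Maff, a small Maf protein gene, had 8.37 and 11.7 CPM in controls against 0.436 and 0.743 in full-length ZNF384 cells, a log2 fold change of −4.17 ± 0.33 (adjusted p = 5.11e-06). Fosl2, another FOS family gene, fell by 1.20 ± 0.20 and Maf by 2.15 ± 0.27. Maf rose with TCF3-ZNF384, by 1.41 ± 0.25 (adjusted p = 0.00372), to 99.0 and 112 CPM. Batf, an AP-1 partner in lymphocytes, fell with TAF15-ZNF384 (−1.17 ± 0.12) and TCF3-ZNF384 (−0.72 ± 0.11) and was at −0.28 with full-length ZNF384 (adjusted p = 0.0719). The EGR co-repressor gene Nab1 fell with TAF15-ZNF384 (−0.45 ± 0.10) and TCF3-ZNF384 (−0.39 ± 0.10). Nab2, a co-repressor gene that EGR proteins induce, had 0.978 and 1.01 CPM in controls, 0.298 and 0.612 in full-length ZNF384 cells, and did not pass (adjusted p = 0.147). Nab2 overlaps Stat6 on the opposite strand. Egr4 had 1 count in all.

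Srf, the gene of the CArG box factor, had 38.9 and 41.2 CPM in controls and 39.3 and 39.7 in full-length ZNF384 cells. Of 8 SRF and ternary complex factor genes, Mkl2 rose (0.34 ± 0.10) and Elk3 fell (−0.41 ± 0.10) with full-length ZNF384, and the median was −0.02. Elk3, a ternary complex factor that can repress, was the 1 gene of the list that rose with TAF15-ZNF384 (0.66 ± 0.11, list median 0.06). With TCF3-ZNF384 3 of the 8 rose, Elk3 (0.94 ± 0.10), the ternary complex factor Elk4 (0.52 ± 0.10) and Mkl2 (0.35 ± 0.10), and the list median was 0.20. Of 22 genes of the MAP kinase pathways, 6 rose and 1 fell with full-length ZNF384 (median 0.28), and 7 rose and 2 fell with TCF3-ZNF384 (median 0.17). With TAF15-ZNF384 none passed by the main edgeR fit or limma-voom (median 0.16), and 1 fell by DESeq2. At an unadjusted p under 0.05 there were 7 higher and 3 lower. Other settings with all 8 libraries called up to 4 higher and up to 3 lower. Map2k6, a kinase that activates p38, rose by 1.81 ± 0.35 with full-length ZNF384, from 0.743 and 0.766 to 2.50 and 2.84 CPM, while Braf fell by 0.39 ± 0.10. The kinase gene Mapk8, which encodes a JUN kinase, rose with full-length ZNF384 (0.43 ± 0.10) and with TCF3-ZNF384 (0.65 ± 0.10). Without replicate 1 of the empty vector, and likewise without its replicate 2, the number of MAP kinase pathway genes that rose with full-length ZNF384 was 1 and none fell. Transcript levels do not show the activity of kinases.

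Of 36 other immediate early genes tested with full-length ZNF384, 26 fell and 1 rose, with a median of −1.21. Setting Ier3 at its bound left this median as it was. Nfkbia, the NF-kB inhibitor gene, fell by 1.85 ± 0.13, the phosphatase gene Dusp4 by 3.22 ± 0.32 and the kinase gene Plk3 by 2.69 ± 0.25. Ier3 had no count with full-length ZNF384 and was at least 16.3-fold higher with the empty vector, on 37 counts. This bound was 5.60-fold without full-length ZNF384 replicate 1 and 10.7-fold without its replicate 2 or without empty vector replicate 1. Myc, the growth regulator, was the gene that rose, by 0.52 ± 0.10 (adjusted p = 0.00235), from 87.7 and 78.7 to 123 and 115 CPM. Its call was lost without empty vector replicate 2. With TAF15-ZNF384 4 of the 36 fell and 2 rose (median 0.13), and with TCF3-ZNF384 7 fell and 6 rose (median −0.15). The TCF3-ZNF384 counts are near the shares of all tested genes, 17.0% lower and 16.2% higher, and are no result about these genes. Myc fell in both, by 0.48 ± 0.10 and 0.67 ± 0.10, and Ier5l rose in both, by 1.52 ± 0.29 and 1.21 ± 0.28. Without TCF3-ZNF384 replicate 2 the number that rose with that fusion was 1, without replicate 1 it was 3, and without empty vector replicate 1 it was 2. Without empty vector replicate 1 or TAF15-ZNF384 replicate 1, none rose and 2 fell with TAF15-ZNF384.

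Of 15 genes often described as AP-1 targets 8 could be tested, and with full-length ZNF384 1 rose, none fell by edgeR and the median was 0.03. Unadjusted p was under 0.05 for 2 that were lower. These were Ccnd1, with 49 counts in controls and 5 in full-length ZNF384 cells, and Hmox1, with 15 and 1. DESeq2 and limma-voom called none lower either, but other settings with all 8 libraries called up to 2 lower. With TAF15-ZNF384 2 rose and 1 fell (median 0.14), and with TCF3-ZNF384 2 rose and 3 fell (median −0.04). Spp1, the osteopontin gene, rose by 1.11 ± 0.22 with full-length ZNF384 and fell by 1.79 ± 0.30 with TCF3-ZNF384. Mmp13, a collagenase gene, had 71.0 and 80.2 CPM in controls and 48.1 and 83.5 in full-length ZNF384 cells, against 281 and 272 for TAF15-ZNF384, and 275 and 274 for TCF3-ZNF384. Its rise was 1.87 ± 0.22 with the first fusion and 1.86 ± 0.22 with the second. Il2ra, which encodes CD25, rose by 1.51 ± 0.25 and 3.85 ± 0.25 with the same fusions.

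Atf3 is also a gene of the integrated stress response. Of 11 other integrated stress response genes 10 fell with full-length ZNF384 (median −1.49), 6 with TAF15-ZNF384 (median −0.41) and 7 with TCF3-ZNF384 (median −0.81). Trib3, a pseudokinase gene of this response, fell in all 3, by 1.91 ± 0.13, 1.82 ± 0.13 and 2.44 ± 0.14. Ddit3, the gene of the CHOP factor, fell by 2.74 ± 0.15 with full-length ZNF384, to 9.17 and 13.1 CPM from 66.5 and 79.9, and was at −0.32 with TAF15-ZNF384 (adjusted p = 0.178). Of 11 heat shock genes 5 fell with full-length ZNF384 (median −0.36). Hspa1b (−3.43 ± 0.32) and Hspa1a (−3.13 ± 0.32), whose sequences are nearly identical, led them. With TAF15-ZNF384 1 heat shock gene fell (median −0.44), and 4 were lower at an unadjusted p under 0.05 by edgeR. Alternative settings with all 8 libraries called 1 to 5 lower with this fusion. With TCF3-ZNF384 5 fell (median −0.64).

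**Figure D5:**
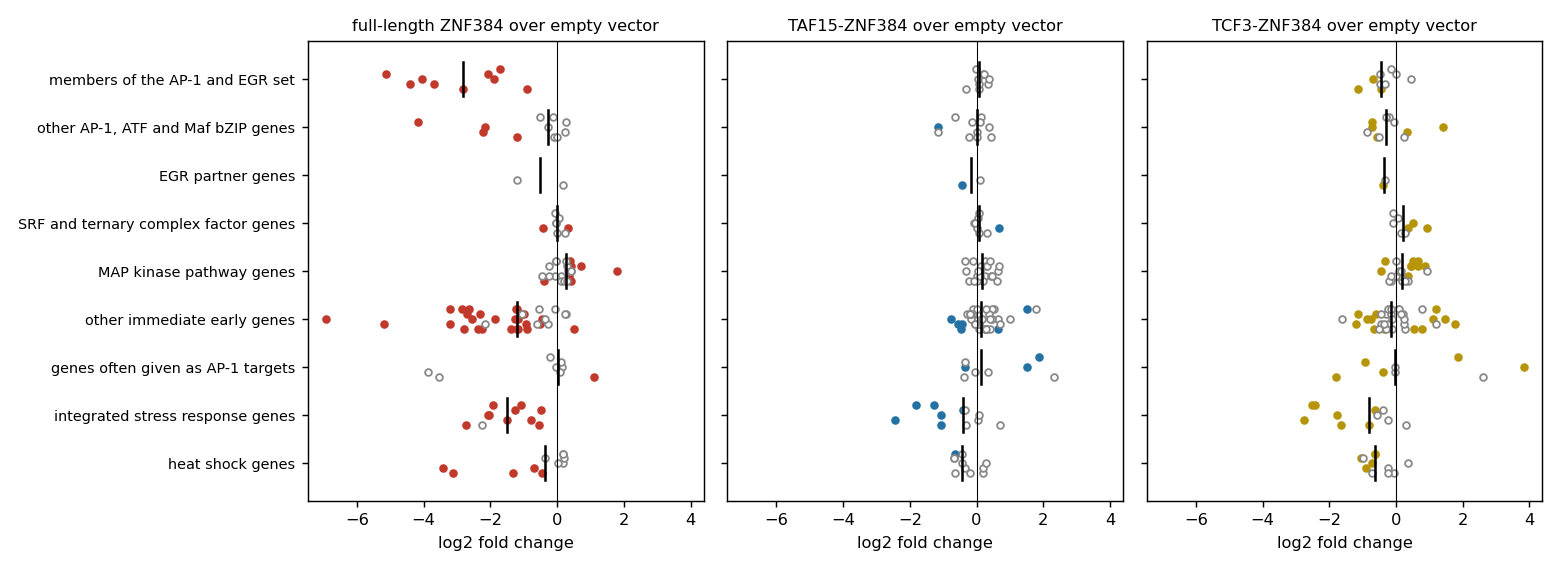
Log2 fold change over the empty vector for each tested gene of the AP-1 and EGR set and of 8 gene lists. Coloured points passed an adjusted p of 0.05, grey rings did not, and black bars are medians. The immediate early gene farthest left with full-length ZNF384 is Ier3, which had no count there and is plotted at its fitted value.

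Some of these values have limits in the annotation. Jun and Egr1 overlap gene models on the opposite strand that are not in the count table, and Jund overlaps Gm11175, which had 0 to 4 counts per library. Counts of these 3 genes depend on the strand setting of the counting step, which is not given in the sources used here. Per-kilobase levels use the union of all annotated exons, so a gene with a rarely used long exon is set too low.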

How the data were processed

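The 8 libraries were made with a stranded total RNA kit, per the labels' protocols. The deposited values are raw counts per gene, which the authors made with HTSeq 0.6.1p1 on mm9, per the submitters' processing notes. Which aligner and strand setting were used is not given in the sources used here. The analysis used edgeR 4.0.16 under R 4.3.3. Low genes were removed by filterByExpr, libraries were scaled by TMM, and a robust quasi-likelihood model with 1 term per group was fitted to all 8 libraries (4 residual degrees of freedom, biological coefficient of variation 0.0958). The 6 pairwise comparisons were 2-sided and adjusted over all tested genes. SE is the log2 fold change divided by the root of F, and 95% intervals use the total degrees of freedom. Floors cover counting error only, and only in the group at 0. Counts of the higher group were taken as observed, so the bounds do not cover their counting error. The fitting step was tested on simulated data. Alternatives used DESeq2 1.42.0, limma 3.58.1 (voom), other filters and scalings, thinning, a replicate block and leaving out each library.

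The members, lists and tests were chosen with earlier results of these data known. The genes named were the members, Zfp384, up to 3 genes per direction and list with the smallest adjusted p in each comparison with the empty vector, and the 5 nearest in pattern. Srf, Nab2, Egr4, Hspa1a, Ier3, Ccnd1 and Hmox1, and library values of named genes, were added after their values were seen. Exon lengths and positions are from GENCODE vM1 on mm9.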

Additional observations from a re-analysis of the deposited data

How the results depend on the processing

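Of 912 values for single factors under 17 alternatives, 853 kept their side of the threshold, 38 lost the call, 21 gained one and 0 called values reversed. The cause of the losses and gains was not tested. A value called in neither fit could change sign and still count among the 853. For Jund with TCF3-ZNF384 over the empty vector, for example, the log2 fold changes ran from −0.29 to 0.27. Leaving out a library gave 35 of the losses and 7 of the gains, other settings gave 3 and 14, and 20 of the gains were between the fusions. Leaving out 1 library at a time, the factors called ranged from 3 to 10 with full-length ZNF384 over the empty vector (10 where Egr3 was also tested), from 0 to 4 with TCF3-ZNF384, from 4 to 10 with TAF15-ZNF384 over full-length ZNF384, from 3 to 10 with TCF3-ZNF384 over full-length ZNF384 and from 0 to 2 between the fusions. All genes called then ranged from 1064 to 3814 (main value 2675), from 404 to 2783 with TAF15-ZNF384 (1430) and from 2501 to 5372 with TCF3-ZNF384 (4317) over the empty vector, from 2158 to 5333 (4320) and from 3866 to 6558 (5916) for these fusions over full-length ZNF384, and from 371 to 2361 between the fusions (1308). A fit of only the 2 groups compared called 2746 genes for TAF15-ZNF384 over the empty vector, 2548 between the fusions, and 1 factor for TCF3-ZNF384 over the empty vector. Between the fusions, where edgeR called 0 factors, 1 was called with DESeq2 size factors, DESeq2's Wald test, a minimum of 2 CPM or only the 2 groups, 2 with limma-voom or thinning to equal counts, and 3 with no filter on low counts. The thinned counts moved with the random draw: over 10 draws, chosen after seeing the data, 8 to 9 factors were called with full-length ZNF384 over the empty vector, 1 to 3 with TCF3-ZNF384 over the empty vector and 1 to 2 between the fusions. The replicate numbers share no stated source, and the deviations of same-numbered libraries correlated at 0.0136 to 0.225 between groups. With the number as a block, 3 factors were called between the fusions, Ier2, Junb and Atf3, at −0.55, −0.77 and −0.86 (adjusted p = 0.0209, 0.00786 and 0.00253), and no other call of a factor changed. With 2 libraries a group, Egr2 and Egr3 rest on at most 33 and 9 counts per library.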
